A study of Mus musculus with 62 samples.

Results

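The sarcomere genes described here are 38 genes (the members) taken by name from the 47643 gene symbols of the expression table, namely the actins, troponins, tropomyosins, myosin light chains, myosin binding proteins, giant proteins, filament length regulators, and Z-disc and M-band proteins of striated muscle. All 38 were present in the table, and 38 of 38 were among the 13578 genes that reached at least 1 TPM (a transcript level corrected for gene length and scaled to the same total in every library) in at least 5 mice. The data are RNA-seq of diaphragm muscle from 62 female mice, whose age the labels give as 2 months. Per the methods of the study, tendon was removed and a part of each muscle was used for RNA. Each mouse had received a melanoma that causes cachexia, the wasting of muscle and fat (CAC), a melanoma that does not (NCAC), or a mock injection (Con), and diaphragms were taken 2, 4, 6 or 8 weeks later. There were 5 mice in each of 11 conditions and 7 in the cachectic group at 8 weeks. The labels give the strain as C57BL6/J, whereas the methods of the study name NCI Ath/nude mice, the kind of host in which a human tumor can grow. Each tumor group rests on a single patient-derived tumor stock, so a difference between the tumor groups cannot be told apart from any other difference between those stocks.

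The sarcomere is the contractile unit of striated muscle, in which thin filaments of actin, anchored at the Z-disc, slide past thick filaments of myosin, held together at the M-band. Tropomyosin and the troponin complex lie along the thin filament and gate the access of myosin in response to calcium. Titin runs from the Z-disc to the M-band and nebulin along the thin filament, both as molecular scaffolds. Many of these proteins come in fast-fiber, slow-fiber and cardiac or developmental isoforms encoded by separate genes, and the diaphragm, the main muscle of breathing, holds a mixture of fiber types. In bulk tissue, fewer cells of one type and less RNA per cell cannot be told apart.

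The files give no read counts, so the depth of each library is unknown. Libraries had 15069 to 19057 genes above 0, and mitochondrially encoded genes took 32.5 to 61.5% of all TPM. A set of 4 libraries stood apart, with 15069 to 16389 genes above 0 and 54.4 to 61.5% mitochondrial TPM, of which 3 were from 2 weeks (CAC replicates 3 and 4, NCAC replicate 5) and 1 from 8 weeks (CAC replicate 3). A further 4 libraries, of which 3 were controls at 2 weeks (replicates 2, 4 and 5) and 1 was cachectic at 6 weeks (replicate 5), had the highest levels of a list of liver genes. A list of skeletal myofiber markers (Ckm, Ryr1, Cacna1s, Atp2a1, Pygm, Myh1, Myh2, Myh4 and Myh7) was above 0 in every mouse, with Ckm, muscle creatine kinase, at 2483 to 7019.5 TPM and Ryr1, the calcium release channel, at 24.5 to 691 TPM. Its summed level was lowest in the 4 libraries with few genes, at 4809 to 8797 TPM, and 15085 to 38425 TPM in the others. Its mean in cachectic mice was 30903 TPM (range 24539.5 to 36405) at 6 weeks and 27124 TPM (4809 to 38425) at 8 weeks, and in control mice 21485 TPM (19401 to 25671) and 23052 TPM (20051 to 24767). A heart list (Myh6, Nppa, Nppb, Myl7 and Tnni3) summed to 18.9 to 190.3 TPM, mostly Myh6, the cardiac alpha-myosin heavy chain, at 16.6 to 189 TPM. Of the others Myl7 reached 5.77 TPM and Nppa 3.37 TPM, and Nppa, Nppb and Myl7 were at 0 in 7, 27 and 5 mice. The part of these markers in the results was not tested.

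The members spanned the range from the most abundant transcripts of the muscle to genes near the limit of detection. By their median over all mice, 13 lay above 1000 TPM, 18 between 100 and 1000, 3 between 10 and 100, and 4 below 10. Acta1, the skeletal muscle alpha-actin, was the highest member at a median of 27402 TPM and ranked 8 among all genes of the table. It was followed by the fast troponins Tnnt3 (12368 TPM) and Tnnc2 (9769 TPM). The 4 lowest members were Actc1, the cardiac alpha-actin (5.72 TPM), Mybph, a myosin binding protein (5.64 TPM), Tnnt2, the cardiac troponin T (1.72 TPM), and Myl4, the atrial and embryonic light chain (1.05 TPM). The summed level of the 38 genes was 8.58% ± 0.576 (SD, n = 5) of all TPM in control mice at 8 weeks and 10.1% ± 1.76 (SD, n = 7) in cachectic mice, while the mitochondrial share was 45.0% ± 3.16 and 40.7% ± 7.78 in the same groups. Outside the mitochondrial genes the members held 15.6% ± 0.502 and 17.1% ± 1.26. The part of the mitochondrial share in the differences below was not tested beyond the scalings that are named.

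Cachectic and control diaphragms were compared at each week to ask how the transcripts of the contractile apparatus move as the tumor grows. At 4 weeks no member passed the test (limma on log2(TPM + 1), Benjamini-Hochberg adjusted p under 0.05), when 0.0221% of all genes did (0.0147% higher and 0.00736% lower), and 4 members had an unadjusted p under 0.05. At 6 weeks 8 members were higher and 2 lower in cachectic mice, that is 26.3% of the members where 6.79% of all genes were called (5.62% higher and 1.17% lower). At 8 weeks 6 were higher and 4 lower, again 26.3% of the members, where 14.8% of all genes were called (6.65% higher and 8.12% lower). The middle member shifted little against the middle gene of the table, with a median log2 difference of 0.18 over the members and 0.17 over all genes at 6 weeks, and of 0.09 and -0.09 at 8 weeks. Against non-cachectic mice, none passed at 4 weeks (0.0295% of all genes), 5 were higher and 2 lower at 6 weeks, and 4 were higher and 3 lower at 8 weeks. Of all genes, 5.85% were called in that comparison at 6 weeks (4.28% higher and 1.57% lower) and 12.9% at 8 weeks (6.75% higher and 6.19% lower). The comparisons with control and with non-cachectic mice share the same cachectic mice. In each of these comparisons at 6 and 8 weeks, Tmod4 and Myoz2 were called higher and Actc1 and Lmod3 lower.

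The separation of individual mice shows the same data without a model. At 4 weeks every cachectic mouse was above every control mouse in 2 members, Tmod4 and Des, and below in 3, Actc1, Tnni1 and Ldb3, when 4.91% of all genes were above and 1.93% below, or 6.84% in all. At 6 weeks 12 members were above and 2 below control (15.9% and 2.95% of all genes), and 9 were above and 3 below non-cachectic mice (13.6% and 3.3%). At 8 weeks 4 were above (Tnni2, Tpm3, Mylpf and Tmod4) and 3 below control (Actc1, Lmod3 and Ldb3), when 2.52% and 3.82% of all genes were. Against non-cachectic mice at 8 weeks Tnni2 and Tmod4 were above and Lmod3 below, with 2.45% and 2.42% of all genes. At 4 weeks Tmod4, Des, Mylk2 and Mybpc2 were above and Actc1 and Ldb3 below the non-cachectic mice, with 5.52% and 0.906% of all genes.

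**Figure D1:**
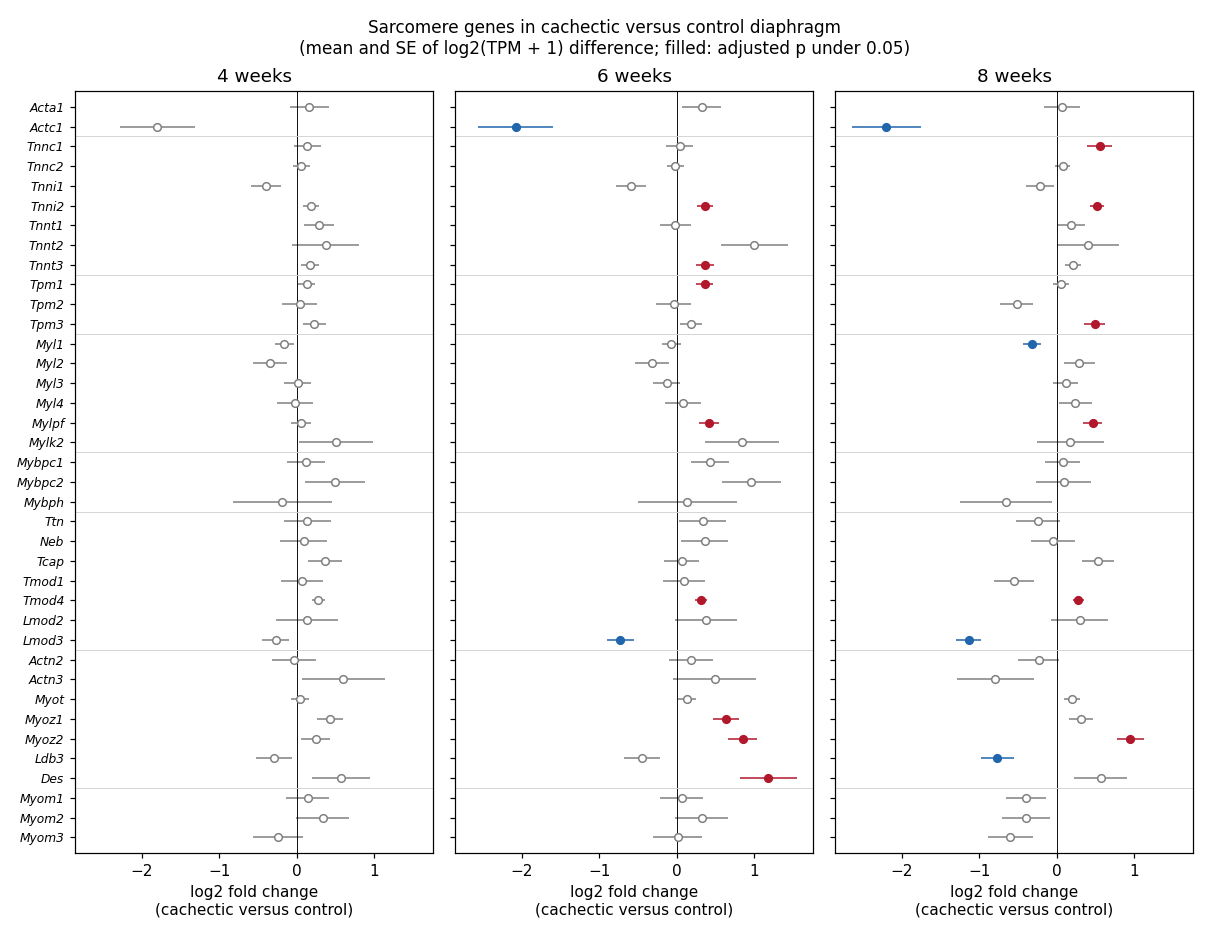
Difference between cachectic and control diaphragm for each of the 38 genes (rows, grouped by role) at 4, 6 and 8 weeks, as the fitted log2 difference of TPM + 1 (x axis) with its standard error. Filled red points passed the test upward and filled blue points downward, and Actc1 lies farthest to the left at every week shown, at -1.80, -2.08 and -2.20.

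Among the actins, the minor cardiac form fell while the main skeletal form did not pass the test at 6 or 8 weeks. Actc1 (chr2:114047282-114053548, minus strand, GRCm38) was at 10.01, 4.27, 12.4, 9.06 and 5.39 TPM in control mice and at 8.91, 4.71, 2.30, 7.05 and 10.7 TPM in non-cachectic mice at 8 weeks. In cachectic mice it ranged from 0.165 to 2.73 TPM with a median of 0.771. Every cachectic mouse was below every control mouse, and the highest cachectic mouse, the library with few genes, was above the lowest non-cachectic mouse. The log2 difference was -2.20 ± 0.448 (SE, adjusted p = 0.00031) against control and -1.90 ± 0.448 (adjusted p = 0.00202) against non-cachectic mice. At these levels the scale of log2(TPM + 1) understates the change of Actc1. At 6 weeks its levels were 0.834, 0.652, 0.827, 1.5 and 1.76 TPM in cachectic mice and 1.40, 14.5, 11.7, 6.02 and 14.5 TPM in control mice. The groups overlapped there through 1 control mouse (log2 difference -2.08 ± 0.484, adjusted p = 0.00405). At 4 weeks the cachectic mice, up to 3.93 TPM, were already all below the control and the non-cachectic mice, each at 4.18 TPM or more, but the difference of -1.80 ± 0.484 did not pass (adjusted p = 0.206).

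Acta1 was at 25258, 33175, 27819, 28685 and 29526 TPM in control mice at 8 weeks, and at 8945 to 47694 TPM with a median of 36998 in cachectic mice. The lowest cachectic value belonged to the library with few genes, and the groups overlapped. Its log2 difference was 0.07 ± 0.235 (adjusted p = 0.889), and 0.36 (adjusted p = 0.00811) without the 4 libraries with few genes. No stretch of 100 bases in the exons of either gene occurred in the other.

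Of the tropomyosins, which wrap the actin filament, Tpm3 was higher than control at 8 weeks and Tpm1 at 6 weeks. Tpm3, the slow-fiber tropomyosin, was at 224, 261, 176, 239 and 216 TPM in control mice at 8 weeks and at 265 to 440.4 TPM, median 292, in cachectic mice. All 7 cachectic mice were above all control mice (log2 difference 0.49 ± 0.136, adjusted p = 0.00886), and the call was lost without control replicate 3 (adjusted p = 0.0547). At 6 weeks Tpm3 passed against non-cachectic mice (0.53 ± 0.147, adjusted p = 0.0206), in 7 of 10 fits without 1 mouse, but not against control. It did not pass against non-cachectic mice at 8 weeks, when 2 of 7 cachectic mice were above all of them. Reads of Tpm3 are uncertain in part, because 15.8% of the 100-base stretches of its exons also occur in the processed copy Tpm3-rs7. Tpm1, the fast-fiber form, rose at 6 weeks against control (0.37 ± 0.111, adjusted p = 0.0329), when its levels were 1673, 1398, 1640.2, 1711 and 1548 TPM against 1251, 1302, 1264, 1200.5 and 1157. The groups did not overlap, and the call held in 4 of 10 fits that each left out 1 mouse. Tpm1 did not pass against non-cachectic mice at 6 weeks. Tpm2 did not pass at any week from 4 on, with -0.52 ± 0.211 at 8 weeks (adjusted p = 0.0937).

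In the troponin complex, the fast inhibitory subunit rose against control at 6 and 8 weeks and its slow counterpart did not pass the test. Against non-cachectic mice the rise did not pass at 6 weeks, when 3 of 5 cachectic mice were above all of them. Tnni2, the fast-fiber troponin I, was at 4317, 5294, 4417, 4659 and 4640.1 TPM in control mice and at 4543, 4205, 4696, 4861 and 4828 TPM in non-cachectic mice at 8 weeks. Cachectic mice had 5480.5 to 7869 TPM with a median of 6872. All 7 were above every mouse of both other groups. The log2 difference was 0.52 ± 0.0946 (adjusted p = 6.33e-05) against control and 0.53 ± 0.0946 (adjusted p = 5.58e-05) against non-cachectic mice. At 6 weeks Tnni2 was at 7032, 4942, 6426, 6215 and 4924 TPM in cachectic and at 4256, 4849, 4539.9, 4689 and 4372 TPM in control mice. These did not overlap (0.37 ± 0.102, adjusted p = 0.0185), yet the call was lost in 4 of 10 fits that each left out 1 mouse, those without cachectic replicates 1, 3 and 4 and control replicate 1 (adjusted p up to 0.118).

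Tnni1, the slow-fiber troponin I, lay lower in cachectic mice but did not pass, with -0.59 ± 0.194 at 6 weeks (adjusted p = 0.0535) and -0.22 ± 0.18 at 8 weeks (adjusted p = 0.466). The ratio of Tnni1 to Tnni2 within each mouse does not depend on how the library was scaled. At 8 weeks its log2 was -5.42, -5.70, -5.61, -5.38 and -5.52 in control mice and -4.94, -5.19, -5.33, -5.72 and -5.58 in non-cachectic mice. In cachectic mice it ranged from -7.11 to -5.85 with a median of -6.16. At 4, 6 and 8 weeks every cachectic mouse, 5, 5 and 7 in turn, lay below every control and every non-cachectic mouse of its week. The mean log2 ratio was lower by 0.59, 0.96 and 0.75 than in control mice, and by 0.49, 0.47 and 0.92 than in non-cachectic mice. Of 9 such isoform ratios computed, this was the one that separated the cachectic mice in each of these comparisons. No test was made of the ratios.

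**Figure D2:**
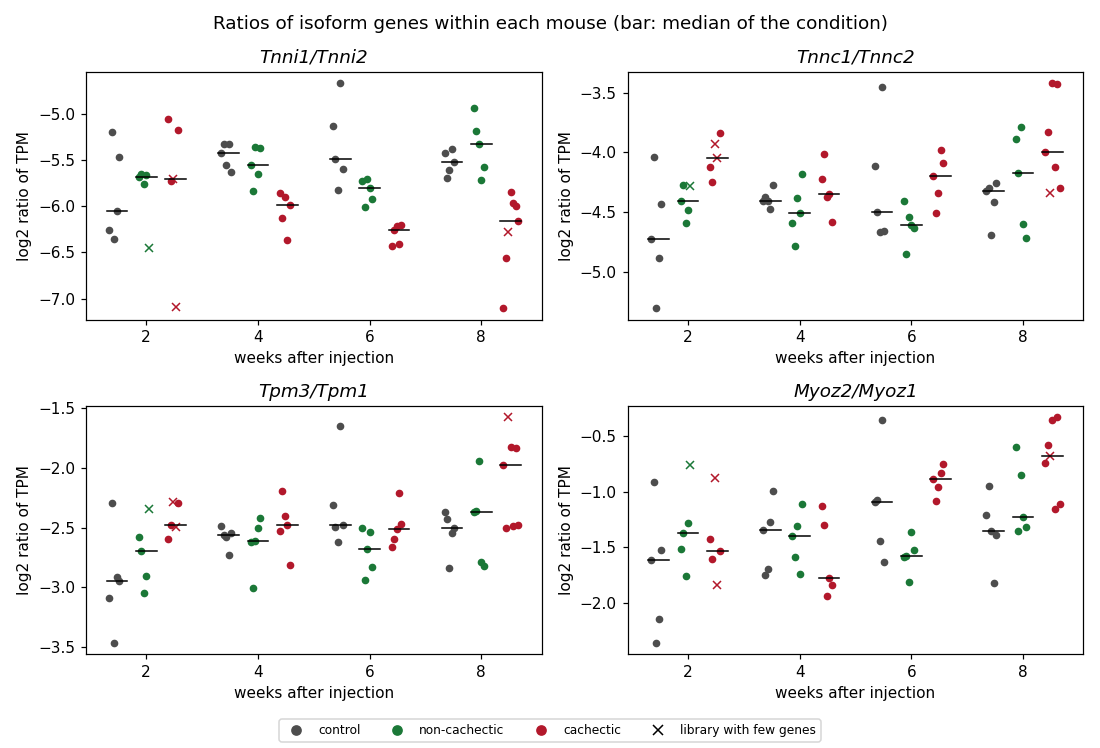
Log2 ratio of TPM of paired isoform genes within each mouse (y axis) by week after injection (x axis), in control, non-cachectic and cachectic mice, with a bar at the median of each condition and crosses for the libraries with few genes. From 4 weeks on the cachectic points of Tnni1/Tnni2 lie below all others of their week, while those of the other ratios overlap with the other groups in part.

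In the other troponin pairs the ratio of the slow to the fast gene did not separate the cachectic mice. Tnnc1, the slow and cardiac troponin C, was at 483, 551, 386, 465 and 497 TPM in control mice at 8 weeks and at 489.7 to 938 TPM, median 733, in cachectic mice. Of the 7 cachectic mice, 6 were above all control mice (log2 difference 0.55 ± 0.164, adjusted p = 0.0144). Without control replicate 3 the call was lost (adjusted p = 0.0633). Tnnc1 did not pass against non-cachectic mice at 8 weeks, and 4 of 7 cachectic mice were above all of them. The fast form Tnnc2 did not pass against control (0.08 ± 0.0976). The log2 ratio of Tnnc1 to Tnnc2 was higher by 0.48 in cachectic than in control mice, opposite in sign to that of the troponin I pair. The log2 ratio of Tnnt1 to Tnnt3 was lower by 0.38 at 6 weeks and by 0.032 at 8 weeks than in control mice, and by 0.29 and 0.26 than in non-cachectic mice, the same sign as troponin I, with at most 2 cachectic mice below all others in any of these. Tnnt3, the fast troponin T, was at 16972, 14389, 14922, 15808 and 14489.6 TPM in cachectic mice at 6 weeks and at 11795, 13308, 12169, 10518 and 11607 TPM in control mice. These did not overlap (0.37 ± 0.114, adjusted p = 0.0377), and the call held in 3 of 10 fits without 1 mouse. Tnnt3 also passed against non-cachectic mice at 6 weeks (0.42 ± 0.114, adjusted p = 0.0178), a call lost without cachectic replicate 1 or non-cachectic replicate 4 (adjusted p up to 0.078), but not against control at 8 weeks (0.21 ± 0.106, adjusted p = 0.185). Tnnt1, the slow troponin T, and Tnnt2 did not pass from 4 weeks on. Tnni2 and Tnnt3 lie near each other on chromosome 7, at chr7:142441808-142444410 and chr7:142498836-142516009 (plus strand, GRCm38), and Tnni1 and Tnnt2 do so on chromosome 1.

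Among the myosin light chains, the fast regulatory chain Mylpf rose. It was at 4844, 5901, 5722, 5724 and 5128 TPM in control mice at 8 weeks and at 6002 to 9837 TPM, median 7538, in cachectic mice. All 7 cachectic mice were above all control mice (0.47 ± 0.123, adjusted p = 0.00515), and 5 of them above all non-cachectic mice (0.47 ± 0.123, adjusted p = 0.00531). It also passed at 6 weeks against control (0.42 ± 0.132, adjusted p = 0.0409), though in only 2 of 10 fits without 1 mouse. It did not pass against non-cachectic mice at 6 weeks. Myl1, the fast essential chain, went the other way at 8 weeks, with 1715, 1998, 2375, 1829.8 and 1920.2 TPM in control and 1169.7 to 1822 TPM, median 1624, in cachectic mice. The groups overlapped, the difference was -0.32 ± 0.114 (adjusted p = 0.0495), and it passed in 4 of 12 fits without 1 mouse. Myl1 did not pass against non-cachectic mice at 8 weeks. The slow chains Myl2 and Myl3, the low Myl4 and Mylk2, the kinase that phosphorylates the regulatory chain, did not pass from 4 weeks on. Neither did the myosin binding proteins Mybpc1, Mybpc2 and Mybph, with Mybpc2, the fast form, at 0.96 ± 0.383 at 6 weeks (adjusted p = 0.123).

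Of the genes that build and limit the thin filament, Lmod3 fell and Tmod4 rose. Lmod3 (chr6:97238534-97252759, minus strand, GRCm38) encodes leiomodin-3, which nucleates actin filaments at their pointed ends and is mutated in a form of nemaline myopathy. It was at 257, 299, 282, 268 and 274 TPM in control mice and at 253, 305, 222, 262 and 269.6 TPM in non-cachectic mice at 8 weeks. Cachectic mice had 103 to 154 TPM with a median of 118, so that no cachectic mouse reached any mouse of the other groups. The log2 difference was -1.14 ± 0.161 (adjusted p = 9.48e-07) against control, a fitted level of 0.454 times that of control, and -1.06 ± 0.161 (adjusted p = 5.11e-06) against non-cachectic mice. At 6 weeks it was at 135, 158, 158, 170.2 and 165 TPM in cachectic mice and at 257, 241, 263, 259.7 and 285 TPM in control mice, again without overlap (-0.73 ± 0.174, adjusted p = 0.0051). At 4 weeks 2 of the 5 cachectic mice, at 155 and 144 TPM, were low and the other 3, at 233 to 264 TPM, lay within the control range (-0.27 ± 0.174, adjusted p = 1). The calls of Lmod3 at 6 and 8 weeks held in every fit that left out 1 mouse, against either group.

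Tmod4, the skeletal muscle tropomodulin that caps the pointed end, was at 230.2, 255, 247, 265 and 232 TPM in control mice and at 233, 245, 217, 235 and 231 TPM in non-cachectic mice at 8 weeks. Cachectic mice had 269 to 342 TPM with a median of 292. The cachectic mice were above all others at 4, 6 and 8 weeks, by a small step whose log2 size was 0.28 ± 0.0802, 0.32 ± 0.0802 and 0.28 ± 0.0742 against control. Its adjusted p was 0.267, 0.00894 and 0.00589 in turn. The call against non-cachectic mice at 6 weeks was lost without cachectic replicate 3 or non-cachectic replicate 4 (adjusted p up to 0.0738). The calls of Tmod4 also depended on scaling, as the adjusted p against control was 0.805 at 6 weeks and 0.0914 at 8 weeks under median-ratio scaling, and 0.537 and 0.16 with mitochondrially encoded genes removed. Ttn, Neb and Tcap, the titin cap at the Z-disc, did not pass from 4 weeks on. Titin was at 167, 203, 202, 211 and 187 TPM in control mice at 8 weeks and at 35.7 to 251 TPM, median 209, in cachectic mice, and its log2 difference turned from -0.24 ± 0.282 to 0.12 without the 4 libraries with few genes. Tmod1, Lmod2 and the actin crosslinkers Actn2 and Actn3 did not pass either.

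At the Z-disc, the calsarcins Myoz1 and Myoz2 rose at 6 weeks, and at 8 weeks Myoz2 was higher and Ldb3 lower. Calsarcins tether calcineurin to alpha-actinin, and Myoz2, calsarcin-1, is the slow-fiber and cardiac form. Myoz2 (chr3:123006206-123035015, minus strand, GRCm38) was at 238, 342, 260.0, 226 and 273 TPM in control mice and at 349, 255, 382, 277 and 267 TPM in non-cachectic mice at 8 weeks. Cachectic mice had 263 to 819 TPM with a median of 545. Of the 7, 6 were above all mice of both other groups and the exception was the library with few genes. The log2 difference was 0.95 ± 0.173 (adjusted p = 6.95e-05) against control and 0.76 ± 0.173 (adjusted p = 0.00141) against non-cachectic mice. At 6 weeks the levels were 589.7, 446, 559.8, 608 and 451 TPM in cachectic, 307, 309, 253, 400.1 and 214 TPM in control, and 235, 229.5, 218, 238 and 256 TPM in non-cachectic mice. Neither comparison overlapped, with 0.86 ± 0.187 (adjusted p = 0.00211) and 1.16 ± 0.187 (adjusted p = 3.37e-05). These calls also passed under median-ratio scaling, quantile normalization and removal of mitochondrial genes.

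Myoz1, calsarcin-2 of fast fibers, was at 1087, 944, 1086, 1085 and 757 TPM in cachectic mice at 6 weeks and at 654, 654, 687, 511 and 665 TPM in control mice. These did not overlap (0.64 ± 0.171, adjusted p = 0.0132), and the call was lost without cachectic replicate 1 or control replicate 4 (adjusted p up to 0.0573). At 8 weeks Myoz1 did not pass (0.32 ± 0.158, adjusted p = 0.189). There, 6 of 7 cachectic mice were above every control mouse and the library with few genes was below all of them. Without the 4 libraries with few genes the difference was 0.48 (adjusted p = 0.00146). With all mice, Myoz1 did not pass against non-cachectic mice at 6 or 8 weeks.

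Ldb3, the PDZ and LIM domain protein ZASP or Cypher that stabilizes the Z-disc, was at 308, 391, 335, 338 and 327 TPM in control mice and at 346, 381, 283, 338 and 356 TPM in non-cachectic mice at 8 weeks. Cachectic mice had 91.1 to 296 TPM with a median of 191. They were all below the control mice, and all but 2 were below the lowest non-cachectic mouse. The log2 difference was -0.77 ± 0.213 against both groups (adjusted p = 0.00848 and 0.00916). At 6 weeks the levels of 210.1, 240.2, 277, 237 and 223 TPM lay below all of the control and non-cachectic mice, as they did at 4 weeks, but the difference from control of -0.45 ± 0.23 did not pass (adjusted p = 0.271). Without the 4 libraries with few genes Ldb3 passed at 6 weeks at the same size (adjusted p = 0.00255) and at 8 weeks with -0.58 (adjusted p = 3.35e-05). Those libraries held 91.1 to 123 TPM of Ldb3.

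Des, desmin, the intermediate filament that links neighbouring Z-discs, had the largest difference among the members called higher than control at 6 weeks. It was at 3656, 2500.0, 3007, 2917 and 2412 TPM in cachectic mice, at 1255, 1199.8, 1158, 1413 and 1277 TPM in control mice and at 979, 1338, 1333, 1034 and 1464 TPM in non-cachectic mice. No cachectic mouse overlapped with any other. The log2 difference was 1.19 ± 0.37 (adjusted p = 0.0385) against control and 1.24 ± 0.37 (adjusted p = 0.0323) against non-cachectic mice, and leaving out any of 9 of the 10 mice ended the former call (adjusted p up to 0.126), while the latter held in 4 of 10 fits. The standard error is set by all mice in the fit, and without the 4 libraries with few genes the same difference had an adjusted p of 9.07e-09. At 8 weeks cachectic mice had 232 to 3635 TPM, median 2626, against 1253, 1415, 1435, 1525 and 1228 TPM in control mice. Of the 7, 6 were above all control mice, and the library with few genes was the exception at 232 TPM (0.57 ± 0.342, adjusted p = 0.296). Without the 4 libraries the difference at 8 weeks was 1.09 (adjusted p = 9.54e-09). Myot, myotilin, and the M-band proteins Myom1, Myom2 and Myom3, which crosslink thick filaments, did not pass from 4 weeks on.

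**Figure D3:**
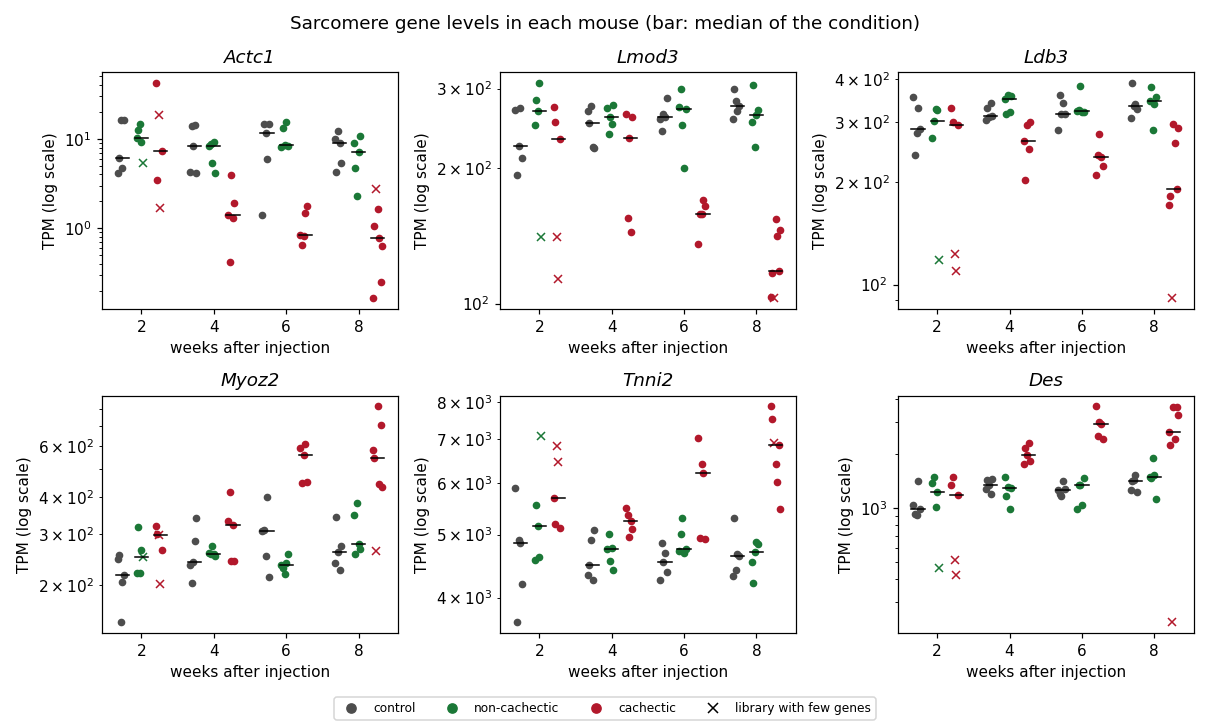
TPM of 6 sarcomere genes in each mouse (y axis, log scale) by week after injection (x axis) for control, non-cachectic and cachectic mice, with a bar at the median of each condition and crosses for the 4 libraries with few genes. Actc1, Lmod3 and Ldb3 lie lower and Myoz2, Tnni2 and Des higher in most cachectic mice at 6 and 8 weeks, and the cross at 8 weeks sits at 232 TPM for Des against a median of 2626.

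The number of members called higher changed with the scaling. Median-ratio scaling moved the median difference of all genes from 0.17 to 0.01 at 6 weeks and from -0.09 to 0.01 at 8 weeks. Under it, 3 members were higher (Mybpc2, Myoz2 and Des) and 4 lower (Actc1, Tnni1, Lmod3 and Ldb3) than control at 6 weeks, where 7.46% of all genes were called, against 8 and 2 in TPM. Tnni2, Tnnt3, Tpm1, Mylpf, Tmod4 and Myoz1 lost their call at 6 weeks under it, with positive differences throughout. At 8 weeks it gave 7 higher and 6 lower (24.1% of all genes), without Tnnc1, Mylpf, Tmod4 and Myl1. Gained there were Tcap, Myot, Myoz1 and Des as higher and Tpm2, Tmod1 and Myom3 as lower. With mitochondrially encoded genes removed there were 3 higher and 7 lower at 8 weeks (25.7%). Tpm2, Tmod1 and Myom3 were again called lower there, and so they were with quantile normalization, together with Myom1. Against non-cachectic mice, the 5 higher and 2 lower at 6 weeks became 2 and 3 under median-ratio scaling (7.67% of all genes), 3 and 3 with quantile normalization (9.24%) and 2 and 3 without mitochondrial genes (6.45%). The 4 higher and 3 lower at 8 weeks became 4 and 6 (21.6%), 3 and 9 (22.3%) and 3 and 8 (21.8%) in turn. Over all genes, the split at 6 weeks was 763 higher and 159 lower in TPM and 464 higher and 545 lower under median-ratio scaling. Lmod3, Actc1 and Myoz2 kept their direction and their call against control at 6 and 8 weeks under each of these scalings and under quantile normalization.

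The libraries with few genes changed the counts as well. Without them, 12 members were higher and 4 lower than control at 6 weeks (31.2% of all genes called) and 16 were higher and 6 lower at 8 weeks (34.6%). Against non-cachectic mice the counts were 13 and 3 at 6 weeks (27.2%) and 15 and 7 at 8 weeks (33.3%). The calls at 6 weeks grew although no mouse of that week was left out.

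At 2 weeks 8 members were higher and 2 lower in cachectic than in control mice, where 29.3% of all genes were called, 27.8% lower and 1.41% higher. The 8 were Tnnc1, Tnnc2, Tnni2, Tpm3, Myl2, Myl3, Mylpf and Tmod4, and the 2 were Ttn and Neb. Ttn was at 61.9, 219, 59.96, 63.3 and 161 TPM in cachectic mice and at 220, 179, 164, 176 and 192 TPM in control mice (-0.94 ± 0.305, adjusted p = 0.0239). The low values came from both libraries with few genes and from cachectic replicate 1, whose liver genes were next after the 4 libraries with the highest. Tnnc1 was at 657, 540, 973, 754 and 723 TPM in cachectic and at 429, 445, 252, 328 and 392 TPM in control mice (0.98 ± 0.177, adjusted p = 0.00252), without overlap. Ttn and Neb are the longest members, with 116825 and 26582 exonic bases, and over the 38 genes the difference fell with log exon length (Pearson's r = -0.63, Spearman's rho = -0.61, a description across genes that share the same libraries). Between cachectic and non-cachectic mice at 2 weeks no member and no other gene passed, and 6 members had an unadjusted p under 0.05. Between cachectic and control mice without the 4 libraries with few genes, r was -0.56 and rho -0.31. No member or other gene was called in that fit, and 16 members had an unadjusted p under 0.05. It lacks cachectic replicates 3 and 4, so this loss of calls cannot be told apart from the smaller group either. No member was called either without the 4 libraries with the highest liver genes, 3 of which are control mice at this week. That leaves only control replicates 1 and 3, so the loss of calls cannot be told apart from the smaller group. What part library quality or liver RNA has in the differences at 2 weeks was not tested further.

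**Figure D4:**
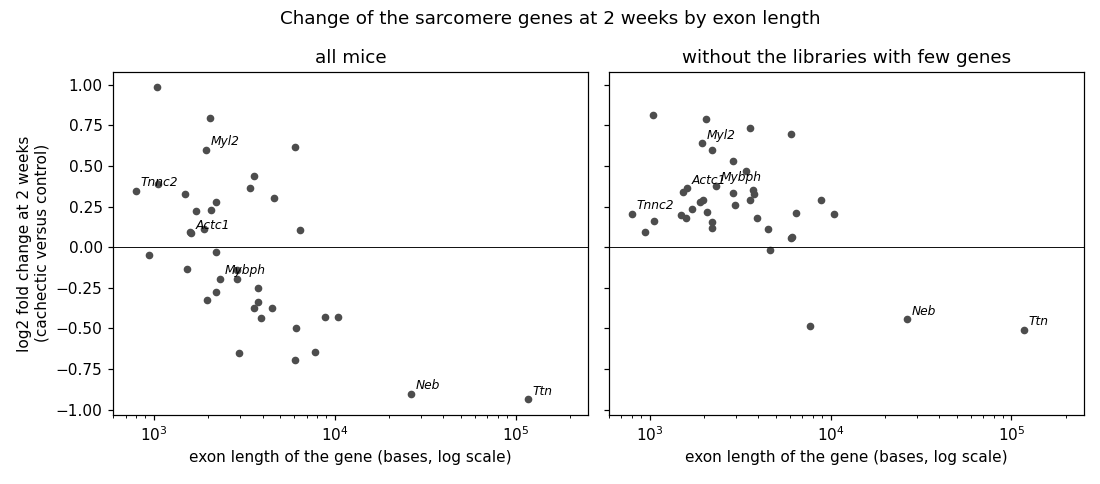
Log2 difference between cachectic and control mice at 2 weeks (y axis) against the exon length of each of the 38 genes (x axis, log scale), for all mice (left) and without the 4 libraries with few genes (right). Ttn and Neb, the longest genes, lie lowest in the left panel at -0.94 and -0.90 and at -0.51 and -0.44 in the right panel.

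The non-cachectic tumor was compared with mock injection to show how these genes stood in mice with a tumor but no cachexia. At 2 weeks 1 member, Myl3, the slow essential light chain, passed (0.69 ± 0.177, adjusted p = 0.00901), when 4.43% of all genes were called (0.0147% higher and 4.42% lower). By the Dunn test that the study used, here adjusted over all genes, no member passed. The study gives its cutoffs as a p with a fold change and names no adjustment. At 4, 6 and 8 weeks no member passed by limma, nor did any other gene, and 0, 1 and 0 members had an unadjusted p under 0.05. The difference in cachectic against control mice was also compared between weeks. No member passed, nor did any gene, for 6 against 4 weeks, 8 against 4 weeks or 8 against 6 weeks, with 1, 5 and 3 members at an unadjusted p under 0.05. The growth of the Lmod3 difference from 4 to 8 weeks, -0.87 ± 0.237 on the log2 scale, had an adjusted p of 0.21. Between control mice at 8 and 4 weeks no member passed by limma, and none had an unadjusted p under 0.05.

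A further list of 38 genes that are not members, of sarcomere assembly and maintenance or related to members by family, gives the surroundings. Of these, 36 were tested. At 6 weeks 2 were higher than control, Ankrd2 and Pdlim5 (chosen after their values were seen), and 0 lower. Of all genes, 6.79% were called there (5.62% higher and 1.17% lower). At 8 weeks 1 was higher and 5 lower, with a list median of -0.24 against -0.09 over all genes. The higher one was Ankrd2, a stretch-responsive partner of titin (2.32 ± 0.431, adjusted p = 8.88e-05). The lower ones were the third calsarcin Myoz3 (-1.71 ± 0.367), Lmod1 (-1.19 ± 0.318), the ubiquitin ligase Trim55 (-1.03 ± 0.297), the muscle methyltransferase Smyd1 (-0.63 ± 0.222) and Pdlim7 (-0.59 ± 0.182). Against non-cachectic mice, 2 list genes were higher and 0 lower at 6 weeks, when 5.85% of all genes were called. At 8 weeks 1 was higher and only 2 were lower than in non-cachectic mice, with 12.9% of all genes. Among the calsarcins Myoz3 was lower and Myoz2 higher than control at 8 weeks. Of the leiomodins, Lmod1 and Lmod3 were lower than control. Lmod2 did not pass, with 5 of 7 cachectic mice above all control mice and 2 below all of them. What part smooth muscle has in the level of Lmod1 was not tested. No list gene passed between non-cachectic and control mice at any week. The myosin heavy chains Myh1, Myh2, Myh4 and Myh7 did not pass between cachectic and control mice at 6 or 8 weeks, with adjusted p from 0.21 to 0.986.

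RefSeq promoter sequences (GRCm38.p6) matched 28 of the 38 members with 33 start sites, and the 250 bases before each start were searched on both strands. The E-box CANNTG was in 84.8% of the member promoters and in 66.2% of all 32851 promoters. The CArG box was in 18.2% and 1.47%, those of Acta1, Actc1, Ldb3, Myl3 and Myom1, and the MEF2 motif in 9.09% and 2.92%, those of Myom3, Myoz2 and Ttn. TATAAA was in 15.2% and 12.4%, and CATTCC in 27.3% and 12.6%. A match is a description of the letters, and these motifs were counted for genes already known to be muscle genes. Of the members with a CArG box, Acta1, Myl3 and Myom1 were not called against control at 6 or 8 weeks. The promoters printed are examples, and a link between motif and direction was not tested. Shown are the promoters of a pair of genes that fell, Actc1 (chr2:114052876-114053125, minus strand) and Ldb3 (chr14:34588682-34588931, minus strand), and a pair that rose, Myoz2 (chr3:123034988-123035237, minus strand) and Tmod4 (chr3:95124264-95124513, plus strand), 5′ to 3′, with capitals for the CArG box in the first pair, for the MEF2 motif and then 2 E-boxes in Myoz2, and for 2 E-boxes in Tmod4.
Actc1: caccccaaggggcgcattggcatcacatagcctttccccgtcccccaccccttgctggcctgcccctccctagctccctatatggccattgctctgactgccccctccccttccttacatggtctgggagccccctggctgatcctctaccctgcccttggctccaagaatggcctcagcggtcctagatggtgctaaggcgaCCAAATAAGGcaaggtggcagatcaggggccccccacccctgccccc
Ldb3: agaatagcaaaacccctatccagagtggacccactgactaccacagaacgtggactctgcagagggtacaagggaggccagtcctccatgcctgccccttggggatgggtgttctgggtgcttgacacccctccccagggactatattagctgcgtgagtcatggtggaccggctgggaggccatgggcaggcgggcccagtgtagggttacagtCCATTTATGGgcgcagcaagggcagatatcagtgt
Myoz2: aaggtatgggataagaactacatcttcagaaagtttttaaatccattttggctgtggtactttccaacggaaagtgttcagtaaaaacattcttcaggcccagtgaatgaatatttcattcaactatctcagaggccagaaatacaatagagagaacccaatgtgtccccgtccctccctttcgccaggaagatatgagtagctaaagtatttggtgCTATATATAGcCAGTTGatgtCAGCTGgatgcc
Tmod4: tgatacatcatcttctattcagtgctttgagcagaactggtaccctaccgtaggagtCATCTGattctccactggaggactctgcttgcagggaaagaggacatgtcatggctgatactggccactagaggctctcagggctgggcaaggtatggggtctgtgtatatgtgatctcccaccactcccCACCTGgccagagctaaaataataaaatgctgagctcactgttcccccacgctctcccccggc
The promoter table has no entry for Actn3, Mylk2, Tnni2, Myoz1, Myot, Myom2, Neb, Tnnt3, Tcap and Lmod3.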

How the data were processed

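Diaphragm RNA of 62 mice was sequenced, and the deposited table holds TPM for 47643 gene symbols in every mouse. Per the methods of the study, the authors extracted RNA with Trizol, prepared TruSeq libraries (a stranded mRNA kit per the labels), sequenced paired reads on an Illumina NovaSeq instrument, trimmed them, and used CLC Genomics Workbench to map to GRCm38 (mm10) and compute TPM. TPM retain no counts, so the depth of each library is unknown and no counting interval can be given. TPM also share a fixed total, so that a change in very abundant genes shifts all others.

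Samples were grouped by the labels into 12 conditions. The 13578 genes that reached 1 TPM in 5 or more mice were fitted as log2(TPM + 1) with limma 3.58.1 in R 4.3.3 (lmFit, then eBayes with trend), with 1 mean for each condition and all 62 mice sharing 1 estimate of the spread. Each of 16 comparisons was adjusted over all genes tested by Benjamini-Hochberg, and adjusted p under 0.05 was called; ± is the standard error of the fitted difference unless SD is named. All tests were two-sided. The fit was tested on simulated data with known changes and independent noise for each gene. That simulation held no libraries that stood apart and no shifts in very abundant genes. Tables and plots were made with Python 3.11.15, pandas 2.3.3, numpy 2.4.6 and matplotlib 3.10.9, and positions and exon lengths come from GENCODE annotation of GRCm38.

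The members and the lists were chosen with earlier results of these data known. Values per mouse were given for members called between cachectic mice and either other group at 6 or 8 weeks, and for Acta1, Ttn and Des in any case. Of the further list of genes, the 6 called against control at 8 weeks were named by this rule. Pdlim5, called at 6 weeks, was named after its values were seen. The replicate number was not used as a block, because same-numbered mice did not deviate together (18 of 60 pairs had a correlation over 0.1, median -0.03) and the labels state no pairing. Alternatives were a pseudocount of 0.1, no filter (23900 genes above 0), median-ratio scaling, quantile normalization, removal of mitochondrially encoded genes, array quality weights, the replicate block, fits of only the groups compared, the Dunn test of the study, and leaving out 4 libraries with few genes, 4 libraries with the highest liver genes, or each mouse in turn.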

Additional observations from a re-analysis of the deposited data

Results flagged for a closer look

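In groups of 5 or 7 mice, 15 of the 204 groups of values examined held a mouse far from the others of its group, judged by its gap to the nearest mouse against the range of the group. Chance gives such a gap in about 1 of 20 groups, and 5 of the 15 came from the libraries with few genes.

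Cachectic replicate 3 at 8 weeks, a library with few genes, had the lowest Myoz1 of its group at 422 TPM (nearest mouse 812), the lowest Des at 232 TPM (nearest 2226) and the lowest Ttn at 35.7 TPM (nearest 165). Non-cachectic replicate 5 at 2 weeks, also a library with few genes, had the lowest Ldb3 at 118 TPM (nearest 269) and the lowest Tnnt3 at 7724 TPM (nearest 12461).

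The others were in libraries that did not stand apart by their number of genes. Control replicate 4 at 2 weeks, among the libraries with the highest liver genes, had the highest Des at 1411 TPM. Control replicate 1 at 4 weeks had the lowest Myl1 at 1724 TPM, and non-cachectic replicate 3 at 4 weeks the highest Myoz2 at 273 TPM. At 6 weeks control replicate 4 had both the highest Tpm3 (383 TPM) and the lowest Myoz1 (511 TPM) of its group, non-cachectic replicate 3 the highest Ldb3 (384 TPM), and cachectic replicate 3 the highest Ttn (279.6 TPM). At 8 weeks non-cachectic replicate 1 had the lowest Myoz1 (528 TPM), replicate 2 the highest Ttn (269.7 TPM), and replicate 4 the highest summed share of the 38 genes (8.98% of TPM, nearest mouse 8.61%).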

How the results depend on the processing

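Counts are members called, with the count reported above given first. A percentage in brackets is the share of all genes called under the same setting, where given. Between cachectic and control mice, 10 at 2 weeks became 17 under median-ratio scaling (17.6%) and 0 with array quality weights (1.13%). The count was also 0 without the 4 libraries with few genes or without the 4 with the highest liver genes. By the Dunn test, or with only the groups compared, it was 0 as well. No other gene was called in those settings either, apart from array quality weights. The count of 0 at 4 weeks became 4 with array weights (7.87%), 3 without the few-gene libraries (1.85%) and 1 with only the groups compared (0.368%). The 10 at 6 weeks became 6 without the filter (3.74%), 19 with array weights (48.4%) and 16 without the few-gene libraries (31.2%). They became 0 by the Dunn test (0%) and 19 with only the groups compared (29.7%). The 10 at 8 weeks became 22 with array weights (36.2%) and 22 without the few-gene libraries (34.6%). They became 5 by the Dunn test (8.26%) or with only the groups compared (4.07%).

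Between cachectic and non-cachectic mice, 0 at 4 weeks became 7 with array weights (8.21%), 2 without the few-gene libraries (2.23%) and 1 with only the groups compared (0.412%). The 7 at 6 weeks became 23 (40.6%), 16 (27.2%) and 19 (24.3%) under those settings and 0 by the Dunn test (0%). The 7 at 8 weeks became 19, 22 (33.3%) and 3 under those settings in turn. They became 12 with quantile normalization (22.3%) and 11 without mitochondrial genes (21.8%). The single call between non-cachectic and control mice at 2 weeks became 0 without the liver-high libraries, by the Dunn test, or with only the groups compared. Of the differences between weeks, 6 against 4 weeks went from 0 to 5 with array weights, and 8 against 4 weeks from 0 to 5 with array weights and 2 without the few-gene libraries. The cause of these changes was not tested. Over all genes, the split of 903 higher and 1102 lower against control at 8 weeks became 1616 and 1647 under median-ratio scaling, 1479 and 1952 with quantile normalization, and 775 and 2989 without mitochondrial genes.

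Leaving out each mouse in turn gave 3 to 15 calls at 2 weeks, 4 to 10 at 6 weeks and 7 to 14 at 8 weeks against control. At 2 weeks 3 calls were left without CAC replicate 3 or control replicate 2, 4 without CAC replicate 4, 5 without control replicate 5, and 15 without CAC replicate 2. At 6 weeks 4 were left without CAC replicate 1, 5 without CAC replicate 4 or control replicates 1 or 4, and 6 without CAC replicate 3. At 8 weeks 14 were called without CAC replicate 3. Against non-cachectic mice the ranges were 0 to 4 at 2 weeks (4 without NCAC replicate 5), 5 to 8 at 6 weeks, and 7 to 14 at 8 weeks (14 without CAC replicate 3, 11 without replicate 5). Non-cachectic against control gave 0 to 1 at 2 weeks. Every other comparison stayed at 0.

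At 8 weeks against control, Tpm1 (0.05 as reported) turned to -0.065 with quantile normalization and -0.045 without mitochondrial genes, Acta1 (0.07) to -0.026 without mitochondrial genes, and Ttn (-0.24) to 0.18 with array weights and 0.12 without the few-gene libraries. None of these was called in TPM. Leaving out each mouse in turn, Acta1 ranged from -0.038 (without CAC replicate 4) to 0.36 (without CAC replicate 3) and Ttn from -0.35 to 0.12 (without CAC replicate 3). With the replicate number as a block (estimated correlation -0.0212), 9 members were called against control at 8 weeks, Myl1 being lost, and the count did not change in the other comparisons listed here. The Dunn test was adjusted over all genes, a threshold unlike that of the study, and was not run for differences between weeks. Without counts, the precision that depth allows cannot be stated, and the levels of Myl4, Tnnt2 and Actc1 lie near the pseudocount.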
